A study of Mus musculus with 8 samples.

Results

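Glucocorticoid-responsive genes were followed in the gastrocnemius, the large calf muscle, of mice with and without BCATm, the mitochondrial enzyme encoded by Bcat2 that starts the breakdown of branched-chain amino acids. The set holds 10 genes picked by symbol, out of 38741 symbols in the deposited table: the glucocorticoid receptor gene Nr3c1, the receptor targets Fkbp5, Tsc22d3 and Sgk1, the Krüppel-like factors Klf9 and Klf15, the C/EBP factors Cebpb and Cebpd, and the metallothioneins Mt1 and Mt2. Each has 1 row in the table and all 10 passed the filter on low values, a mean of at least 1 FPKM over the mice, as did 11118 genes in all. FPKM count sequenced fragments relative to transcript length and to the mapped fragments of the library.

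The 8 mice were males on a C57BL6 background, 4 wild type (WT1 to WT4, 9 to 10 weeks old, 22 to 25 g) and 4 homozygous for the Bcat2tm1.2Clyn allele (KO5 to KO8, 10 to 11 weeks old, 15 to 24 g). Both groups were raised with free choice of a rodent chow and a purified food lacking branched-chain amino acids, and muscles were removed under isoflurane anaesthesia. The labels give ages and weights per knockout mouse. The knockouts of 10 weeks weighed less than any wild-type mouse, and those of 11 weeks lay within the wild-type range. The knockout columns could not be matched to single labelled mice, so neither weight nor age could be set beside their values. Genotype and age cannot be told apart in the older knockouts, and no source used here states the hour of sampling.

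Glucocorticoids, the steroid hormones of the adrenal cortex, enter cells and bind the receptor, which leaves its chaperones, moves to the nucleus and binds glucocorticoid response elements in DNA. In muscle the hormone is known for raising genes of protein and amino acid breakdown, and KLF15 is known as a receptor target that itself raises genes of amino acid breakdown, Bcat2 among them. Metallothioneins bind zinc and copper and are induced by metals through the factor MTF1 as well as by glucocorticoids, and the C/EBP factors are induced by glucocorticoids and by inflammatory cytokines.

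The targeted transcript matched the labels. Bcat2 read 83.0, 42.7, 46.0 and 41.2 FPKM across WT1 to WT4, against 2.89, 5.26, 2.91 and 2.09 FPKM across KO5 to KO8 (limma adjusted p = 0.00245). The depth of the libraries relative to WT2, read from the steps of low FPKM values, ran from 0.437 to 1.23. Markers of muscle fibres, 11 of 12 in the table and led by Pvalb and Tnni2, summed to 72374 to 86124 FPKM across WT1 to WT4, against 71767 to 88181 FPKM across KO5 to KO8. The sum rests on the most abundant of them. Among the others, named after their values were seen, Myh1 was listed at 0 in KO7 and was lower in all knockouts than in any wild-type mouse. This separation was found in 1 of 11 markers, beside 4.68% of all tested genes. Myh4 and Ttn had a limma p of 0.0106 and 0.0311 before adjustment, lower in knockouts. That is 2 of 11 with such a p under 0.05, beside 7.33% of all tested genes. Mb, Pvalb and Tnni2 were higher in knockouts, by 0.38, 0.10 and 0.03 in log2(FPKM + 1), and the other markers lower. WT1 and KO6 stood apart in adipocyte markers, and KO6 in keratinocyte markers, and both are given below beside the genes they touch. In bulk tissue, fewer cells of a type and less RNA per cell cannot be told apart.

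None of the 10 genes passed the threshold of an adjusted p of 0.05 (limma on log2(FPKM + 1), Benjamini-Hochberg over all tested genes), and 0.027% of all tested genes did so. One of the 10, Cebpd, had an unadjusted p under 0.05 and was higher in knockouts. Among all tested genes, 2.99% reached such a p with higher and 7.33% with lower knockout values. Cebpd was also the only one whose 4 knockout values all lay above the 4 wild-type values, which 2.07% of tested genes did. None of the 10 lay below all wild-type values in all knockouts, which 4.68% of tested genes did. The differences between knockout and wild type were positive in 7 and negative in 3 of the 10 genes, with a median of 0.09 on the log2 scale. The median of all tested genes was -0.12, and 36.4% of them had a positive difference. Median-ratio scaling moved that overall median to -0.002, and the differences below are given without that scaling. With it, the differences were -0.09 for Nr3c1, 0.26 for Fkbp5, 0.16 for Tsc22d3, -0.26 for Sgk1, -0.013 for Klf9, 0.18 for Klf15 and 0.37 for Cebpb, and none passed.

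**Figure D1:**
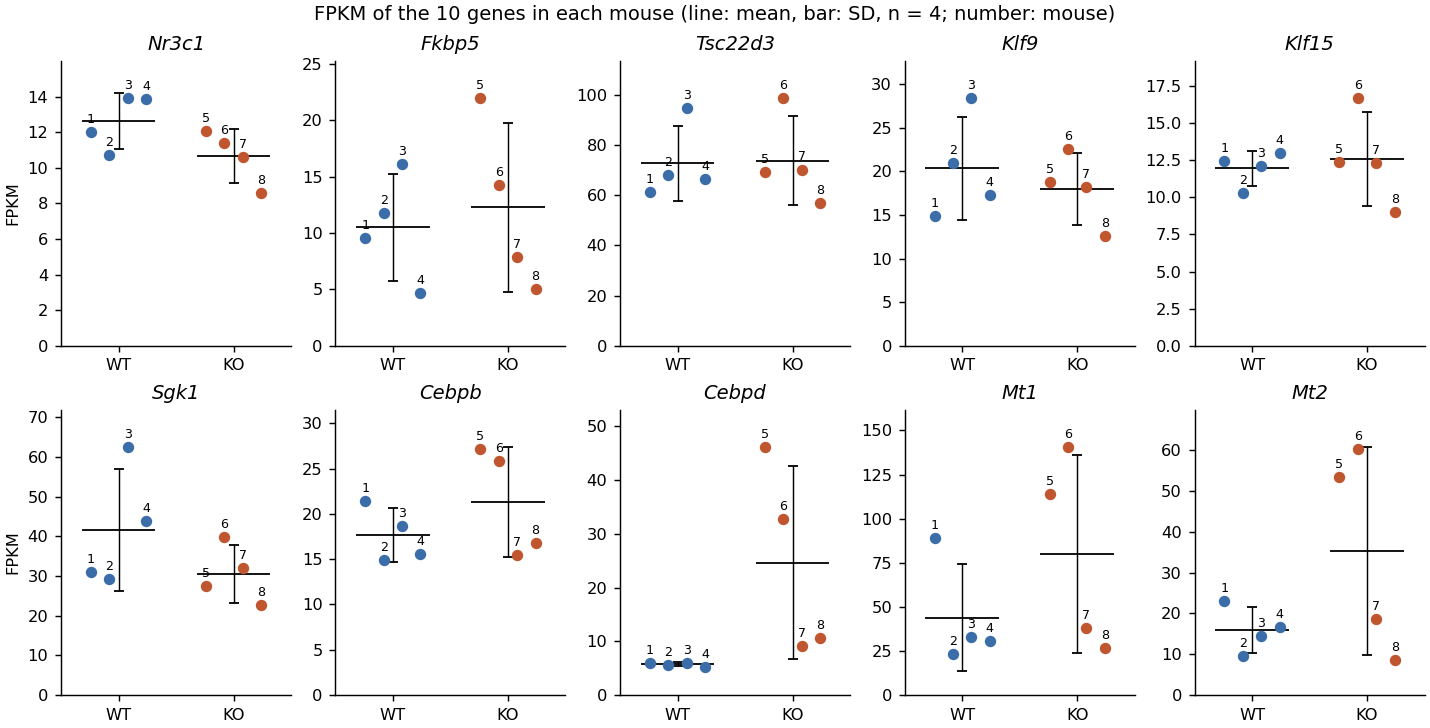
FPKM of each of the 10 genes by mouse, with wild-type mice in blue, knockouts in orange, the mouse number beside each point, and the mean and SD of 4 mice as black lines. The knockouts KO5 and KO6 lie above the other 6 mice for Cebpb, Cebpd, Mt1 and Mt2, while the groups overlap for every gene except Cebpd.

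The receptor gene itself did not pass the test, and its groups overlapped. Nr3c1 (ENSMUSG00000024431, mm10 chromosome 18, 39410545 to 39491301, minus strand) read 11.98, 10.7, 13.9 and 13.9 FPKM in WT1 to WT4 and 12.1, 11.4, 10.6 and 8.58 FPKM in KO5 to KO8. Only KO7 and KO8 lay under the lowest wild-type mouse. The means were 12.6 ± 1.55 and 10.7 ± 1.51 FPKM (SD, n = 4 each), a log2 difference of -0.23 with a 95% interval of -0.56 to 0.11 (limma adjusted p = 0.534). The difference was -0.14 without KO8. It had the narrowest spread of the 10 genes among knockouts, with an SD of 0.195 on the log2 scale against 0.30 for the median tested gene.

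The best known direct targets of the receptor did not separate the genotypes. Fkbp5 (ENSMUSG00000024222, chromosome 17, 28399095 to 28517524, minus strand) encodes FKBP51, a co-chaperone that lowers the receptor's affinity for hormone and so feeds back on it. It read 9.53, 11.8, 16.1 and 4.72 FPKM across WT1 to WT4, against 22.0, 14.3, 7.91 and 5.08 FPKM across KO5 to KO8. KO5 was the highest of the 8 mice, but WT4 and KO8 were the lowest 2, so each genotype held high and low mice. The means of 10.5 ± 4.75 and 12.3 ± 7.50 FPKM (SD, n = 4 each) gave a log2 difference of 0.13 with a 95% interval of -0.92 to 1.18 (limma adjusted p = 0.908). With so wide an interval, 4 mice per genotype set no close limit for Fkbp5. The difference was -0.17 without WT4 and -0.19 without KO5.

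Tsc22d3 (ENSMUSG00000031431, chromosome X, 140539528 to 140600659, minus strand) encodes GILZ, a leucine zipper protein that carries part of the anti-inflammatory action of glucocorticoids. It read 61.3, 68.1, 94.7 and 66.6 FPKM across WT1 to WT4, against 69.2, 98.6, 70.2 and 57.0 FPKM across KO5 to KO8. WT3 and KO6 were the high mice of their genotypes and the other 6 lay within 57.0 to 70.2 FPKM. The log2 difference was 0.01 with a 95% interval of -0.45 to 0.48 (limma adjusted p = 0.981). It was -0.13 without KO6, and also below 0 without WT1, WT2 or WT4.

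Sgk1 (ENSMUSG00000019970, chromosome 10, 21882184 to 21999903, plus strand) encodes a kinase downstream of PI3 kinase that preserves muscle mass in disuse and regulates ion channels. It read 31.1, 29.2, 62.5 and 43.9 FPKM across WT1 to WT4, against 27.5, 39.9, 32.0 and 22.6 FPKM across KO5 to KO8. The highest values were those of WT3 and WT4, and KO5 and KO8 lay under the lowest wild-type mouse. The means were 41.6 ± 15.3 and 30.5 ± 7.35 FPKM (SD, n = 4 each), a log2 difference of -0.40 with a 95% interval of -1.02 to 0.22 (limma adjusted p = 0.548). Without WT3 the difference was -0.19.

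RefSeq promoter sequences (GRCm38.p6) were found for 8 of the 10 genes, at 15 annotated starts, 6 genes with a single start each. They are shown for Sgk1 and Tsc22d3 because these hold the letters of a glucocorticoid response element. The element has the arms AGAACA and TGTTCT with 3 bases between them, each arm being the other read on the opposite strand. In the 250 bases before the start, an arm on either strand was found in 16.1% of the 32851 promoters of the table, and the complete element in 3 promoters (0.00913%). One of these 3 is the Sgk1 promoter at chr10:21993640-21993889, plus strand, with the complete element at bases -189 to -175 from the start and another arm further upstream. Of the other Sgk1 starts, those with windows beginning at 21881934 and 21991973 hold an arm alone, as does the Tsc22d3 window chrX:140600523-140600772 on the minus strand. Capitals mark the arms and the complete element.
Sgk1: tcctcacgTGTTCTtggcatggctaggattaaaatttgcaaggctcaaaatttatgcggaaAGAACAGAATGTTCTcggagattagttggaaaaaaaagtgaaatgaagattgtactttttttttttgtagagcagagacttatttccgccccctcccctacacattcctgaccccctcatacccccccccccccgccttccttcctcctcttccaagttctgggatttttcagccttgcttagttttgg
Tsc22d3: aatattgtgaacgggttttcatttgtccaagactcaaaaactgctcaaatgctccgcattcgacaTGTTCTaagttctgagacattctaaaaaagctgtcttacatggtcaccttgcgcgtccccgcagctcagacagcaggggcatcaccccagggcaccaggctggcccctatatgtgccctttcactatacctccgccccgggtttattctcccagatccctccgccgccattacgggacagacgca
The windows of Cebpb, Fkbp5, Klf9, Klf15, Mt1 and Mt2 hold no arm. With up to 1 mismatch in its arms, the element was in 0.14% of all promoters, and among these genes again in Sgk1 alone. Sgk1, with the complete element before the start named above, was among the genes with lower knockout means, and a link was not tested. Bases outside these windows were not searched, and FPKM were given per gene and not per start.

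The Krüppel-like factors, zinc finger proteins that bind GC-rich and CACCC sequences, differed by less than the spread between mice. Klf15 (ENSMUSG00000030087, chromosome 6, 90462576 to 90475238, plus strand) read 12.5, 10.3, 12.1 and 13.0 FPKM across WT1 to WT4, against 12.4, 16.7, 12.3 and 8.97 FPKM across KO5 to KO8. KO6 held the highest and KO8 the lowest value of the 8 mice, and KO5 and KO7 lay inside the wild-type range. The means of 11.95 ± 1.18 and 12.6 ± 3.15 FPKM (SD, n = 4 each) gave a log2 difference of 0.04 with a 95% interval of -0.37 to 0.46 (limma adjusted p = 0.923). Without KO6 the difference was -0.09, and without WT2 -0.02.

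Klf9 (ENSMUSG00000033863, chromosome 19, 23141226 to 23166911, plus strand), a receptor target that represses other receptor targets, read 14.8, 20.9, 28.4 and 17.3 FPKM across WT1 to WT4, against 18.8, 22.6, 18.2 and 12.6 FPKM across KO5 to KO8. Its order over the mice was close to that of Tsc22d3, with WT3 and KO6 high and KO8 lowest. The log2 difference was -0.15 with a 95% interval of -0.69 to 0.38 (limma adjusted p = 0.771). Without WT3 it was 0.01, and without KO8 -0.0007. The root mean square difference between Tsc22d3 and Klf9 over the 8 mice, with each gene centred on its own mean of log2(FPKM + 1), was 0.15. That was the smallest among the pairs of these 10 genes, and the largest was 1.24, between Cebpd and Sgk1.

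The C/EBP factors behaved otherwise. Cebpd (ENSMUSG00000071637, chromosome 16, 15887286 to 15888466, plus strand), a transcription factor induced early by hormone and cytokine signals, read 5.97, 5.59, 6.00 and 5.21 FPKM in wild type. In the knockouts it read 46.1, 32.7, 9.16 and 10.6 FPKM. All 4 knockouts lay above all wild-type mice, but KO5 and KO6 stood far above KO7 and KO8. The means of 5.69 ± 0.374 and 24.7 ± 17.9 FPKM (SD, n = 4 each) are in a ratio of 4.33. The log2 difference was 1.64 (SE 0.47, 95% interval 0.56 to 2.72), with a limma p of 0.00766 before adjustment and an adjusted p of 0.48. An exact permutation test (2-sided) gave p = 0.0286, the smallest that 4 against 4 mice allow. Every gene whose groups do not overlap gets this value, so it restates the separation. The difference ran from 1.25 to 1.98 when each mouse was left out in turn.

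The spread of Cebpd was uneven between the genotypes. Its SD on the log2 scale was 0.08 in wild type, and 4.62% of tested genes had a smaller one. In knockouts the SD was 1.10, and 93.2% of tested genes had a smaller one. The deposited gene model of Cebpd ends at base 15888466, whereas GENCODE M21 of the same build ends the gene at 15891031, so reads in the rest of the later annotation would not enter its FPKM.

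Cebpb (ENSMUSG00000056501, chromosome 2, 167688915 to 167690418, plus strand), the sister factor that can dimerise with Cebpd's product, had a smaller range. It read 21.5, 14.9, 18.7 and 15.5 FPKM across WT1 to WT4, against 27.1, 25.9, 15.4 and 16.8 FPKM across KO5 to KO8. KO5 and KO6 were again the highest of the 8 mice, with KO7 and KO8 inside the wild-type range. The log2 difference was 0.23 with a 95% interval of -0.27 to 0.73 (limma adjusted p = 0.63). It ran from 0.10 without KO5 to 0.36 without KO7. Tmem189, which overlaps Cebpb on the opposite strand and reached up to 13.1 FPKM, makes the level of Cebpb uncertain, because no source used here states a strand setting.

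The ratio of Cebpd to Cebpb FPKM within a mouse ran from 0.278 to 0.374 in wild type and from 0.594 to 1.70 in knockouts. It was 1.70 in KO5, 1.26 in KO6, 0.594 in KO7 and 0.634 in KO8, so it lay higher in every knockout than in any wild-type mouse. This ratio does not depend on the scaling of the library, but the uncertain level of Cebpb enters it. Cebpd was separated on its own, so the ratio in part restates that. The ratio of Cebpd to Nr3c1 was separated as well, at 0.375 to 0.521 in wild type and 0.863 to 3.83 in knockouts.

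The metallothioneins followed the same pair of knockouts, and 1 wild-type mouse as well. Mt1 (ENSMUSG00000031765, chromosome 8, 94179089 to 94180325, plus strand) read 88.9, 22.9, 32.9 and 30.6 FPKM across WT1 to WT4, against 114, 140.4, 38.1 and 26.3 FPKM across KO5 to KO8. KO6 and KO5 were highest, WT1 came next, and the other 5 mice lay within 22.9 to 38.1 FPKM. The means of 43.8 ± 30.3 and 79.8 ± 56.1 FPKM (SD, n = 4 each) gave a log2 difference of 0.73 with a 95% interval of -0.65 to 2.11 (limma adjusted p = 0.613). It ran from 0.35 without KO6 to 1.13 without WT1 and 1.14 without KO8.

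Mt2 (ENSMUSG00000031762, chromosome 8, 94172618 to 94173567, plus strand) lies 5522 bases upstream of Mt1 on the same strand. It read 23.1, 9.47, 14.4 and 16.5 FPKM across WT1 to WT4, against 53.3, 60.4, 18.7 and 8.45 FPKM across KO5 to KO8. KO5 and KO6 were far above the highest wild-type mouse, KO7 lay inside the wild-type range and KO8 below it. The log2 difference was 0.80 with a 95% interval of -0.53 to 2.13 (limma adjusted p = 0.582), and it ran from 0.42 without KO6 to 1.32 without KO8. Within a mouse the ratio of Mt1 to Mt2 FPKM ran from 1.85 to 3.84 in wild type and from 2.03 to 3.12 in knockouts, so it overlapped between the genotypes, with the highest ratio in WT1.

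The promoters of the metallothioneins are shown because these neighbouring genes were high in the same mice. The metal response element, the site of MTF1, was searched as TGCACNC or TGCGCNC on both strands, and capitals mark each match in the 250 bases before the start. Mt1 lies at chr8:94178839-94179088 and Mt2 at chr8:94172368-94172617, both on the plus strand of GRCm38.p6.
Mt1: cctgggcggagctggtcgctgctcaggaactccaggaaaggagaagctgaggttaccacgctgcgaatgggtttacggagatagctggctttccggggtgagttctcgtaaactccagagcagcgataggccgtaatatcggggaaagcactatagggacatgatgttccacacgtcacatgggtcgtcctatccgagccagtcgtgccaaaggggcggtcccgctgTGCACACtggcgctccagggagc
Mt2: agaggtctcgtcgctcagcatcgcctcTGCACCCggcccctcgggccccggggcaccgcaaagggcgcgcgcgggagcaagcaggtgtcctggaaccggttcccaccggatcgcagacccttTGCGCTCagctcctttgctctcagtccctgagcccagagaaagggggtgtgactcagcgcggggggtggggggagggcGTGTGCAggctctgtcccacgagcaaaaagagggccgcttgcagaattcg
The Mt2 window held 3 matches and the Mt1 window 1. These counts hold for these windows alone, since bases outside them were not searched. Annotated starts also differ, with Mt2 starting at 94172618 in the deposited table and at 94172664 in GENCODE M21. A match was present in 21.4% of all promoters of the table, and 3 or more in 1.26%. Among the other genes, the Klf15 window held 1 match. A CACCC box, which overlaps the most upstream metal response match of Mt2, was found in 52.0% of all promoters.

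**Figure D2:**
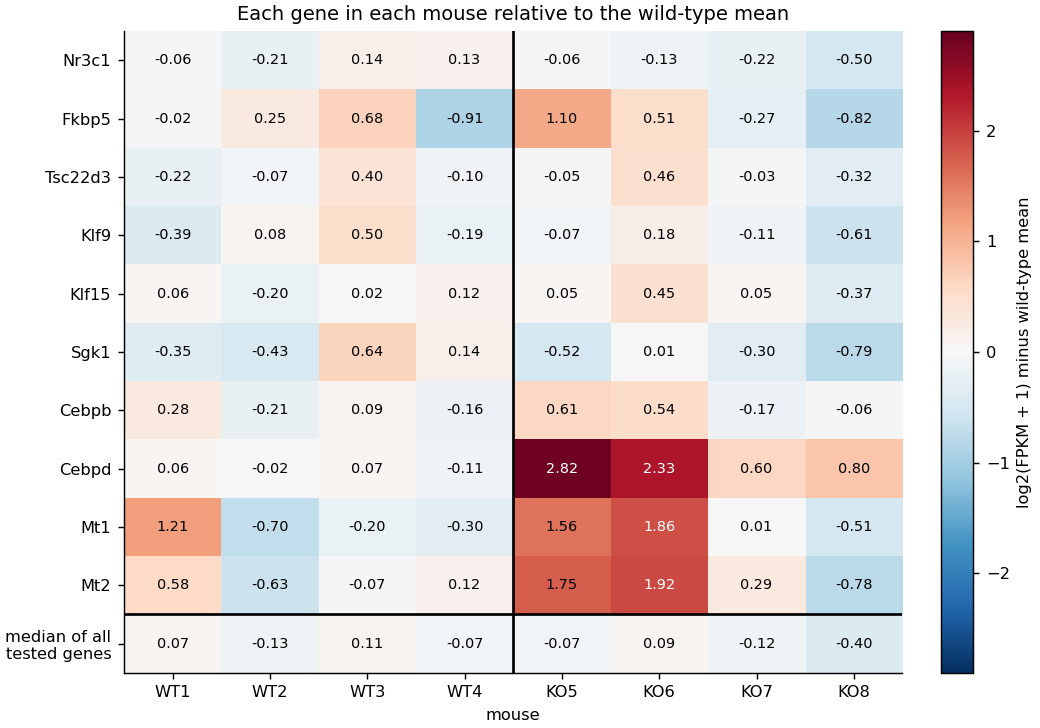
Log2(FPKM + 1) of each gene in each mouse minus the wild-type mean of that gene, with the median of all tested genes in the bottom row. KO5 and KO6 carry the large positive values, 2.82 and 2.33 for Cebpd and 1.75 and 1.92 for Mt2, and KO8 is lowest for 6 of the 10 genes.

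Mouse by mouse, the knockouts were not alike. Values in KO5 and KO6 both exceeded those of the other 6 mice for 4 of the 10 genes, Cebpb, Cebpd, Mt1 and Mt2, and for 11.7% of all tested genes. This pair of mice was picked after the data were seen, so counts of it, here and in the lists below, are a description and not a test. KO6 held the highest value of the 8 mice in 4 genes, KO5 in 3 and WT3 in 3. KO8 held the lowest value in 6 genes, and the median of all tested genes in KO8 lay 0.40 below the wild-type mean on the log2 scale. In the other 7 mice that median lay within -0.13 and 0.11. KO7 lay above the wild-type mean in 4 genes, and none of its values was the highest or lowest of the 8 mice.

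**Figure D3:**
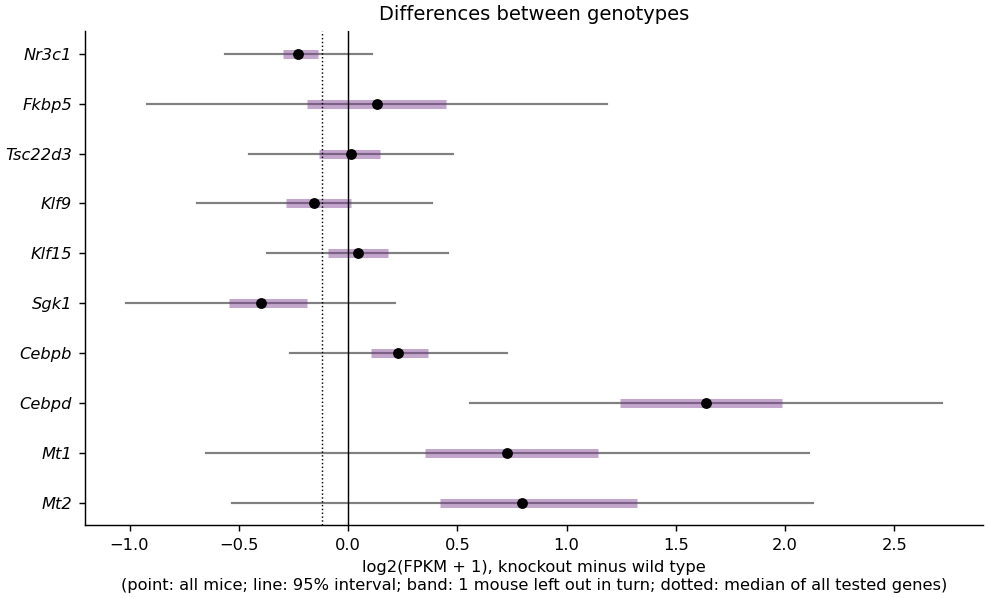
Difference between knockout and wild type for each gene on the log2(FPKM + 1) scale, with the 95% interval of limma as a line and the range over fits without 1 mouse as a band. Only the interval of Cebpd, 0.56 to 2.72, does not reach 0, and the dotted line marks the median of all tested genes at -0.12.

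Markers of other cells moved with some of these values. The summed adipocyte markers, 12 of 12 in the table and none at 0 in all mice, were 18645 FPKM in WT1 and 9745 FPKM in KO6, against 1668 to 3128 FPKM in the other 6 mice. KO5, with 3128 FPKM, held the next highest sum. The most abundant of these markers were Fabp4 and Car3, both also known from muscle or its vessels. The keratinocyte markers, 12 of 12 in the table, summed to 1659 FPKM in KO6 and to between 6.07 and 13.5 FPKM elsewhere, led by Krtdap and Krt10, and Krt14 was listed at 0 in WT1, WT3, WT4 and KO5. Macrophage and leukocyte markers summed to 96.3 to 212 FPKM across WT1 to WT4, against 127 to 379 FPKM across KO5 to KO8, highest in KO6 and WT1, with Lyz2 and S100a8 the most abundant.

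Schwann cell markers, led by Pmp22, were also highest in KO5 and KO6. The sum of 9 such markers, none at 0 in all mice, ran from 38.6 to 71.3 FPKM in wild type and was 135 FPKM in KO5, 98.8 in KO6, 82.3 in KO7 and 57.9 in KO8. Of 7 tested Schwann cell markers 5 had KO5 and KO6 as the highest mice, beside 11.7% of all tested genes. Endothelial sums (104 to 177 FPKM) and fibroblast sums (424 to 770 FPKM) overlapped between the genotypes, but the medians of their genes were lower than that of all tested genes. The median log2 difference was -0.38 for both lists, beside -0.12. Of 10 endothelial markers 3 (Cdh5, Kdr and Tie1) had a p under 0.05 before adjustment, lower in knockouts. Of 10 fibroblast markers 2 (Col1a1 and Col1a2) did, beside 7.33% of all tested genes. All 5 were named after their values were seen. Cdh5 was lower in 4 of 4 knockouts than in any wild-type mouse, as 1 of the 10 endothelial markers, beside 4.68% of all tested genes. Egfl7, the most abundant endothelial marker, was listed at 0 in WT1.

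Mt1 was high in WT1 and KO6, where the adipocyte sum was high, and also in KO5. Cebpd was at 5.97 FPKM in WT1, inside the range of the other wild-type mice, although WT1 had the highest adipocyte sum of all. Without WT1 and KO6, the log2 differences were 1.43 for Cebpd, 0.75 for Mt1 and 0.61 for Mt2, and none passed (limma adjusted p = 0.445, 0.511 and 0.609). Beyond these values, the part of fat, skin, nerve, vessels, connective tissue or leukocytes in the levels of these genes was not tested.

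**Figure D4:**
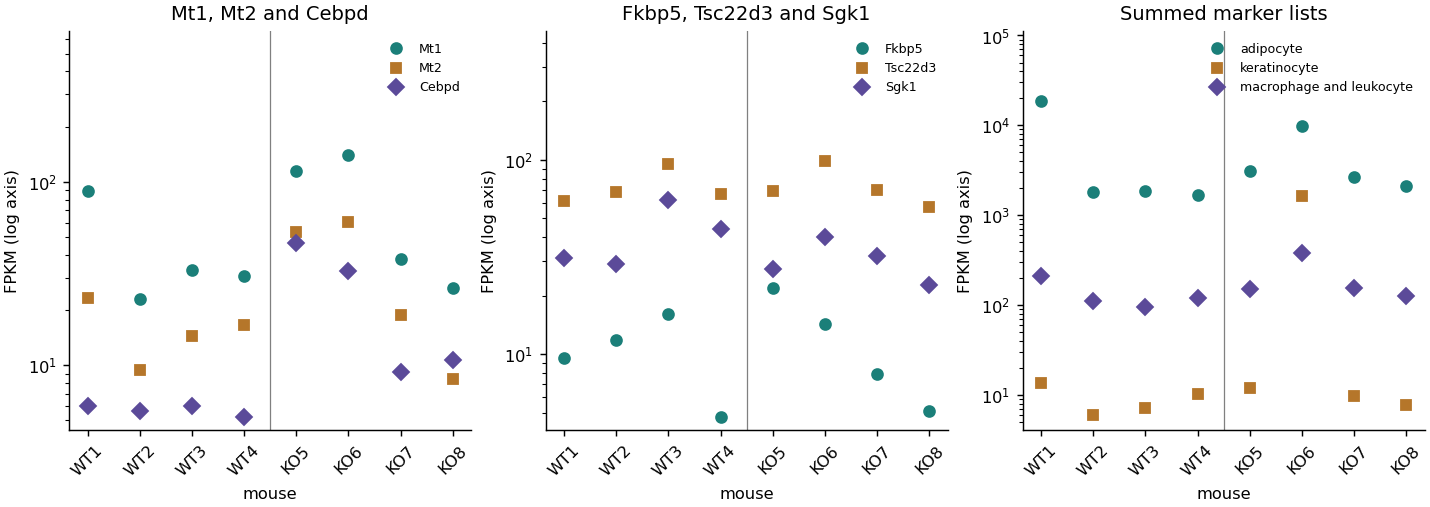
FPKM on log axes by mouse for Mt1, Mt2 and Cebpd, for Fkbp5, Tsc22d3 and Sgk1, and for the summed adipocyte, keratinocyte and macrophage and leukocyte markers. Adipocyte sums are high in WT1 and KO6, the keratinocyte sum in KO6, and Cebpd is high in KO5 and KO6 but not in WT1.

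Genes that act with the receptor gave no call. Of 20 cofactors, chaperones and steroid-converting enzymes, 19 were tested and 0 passed in either direction. Before adjustment, 0 higher and 1 lower gene had a p under 0.05, beside 2.99% and 7.33% of all tested genes. The list median of the log2 difference was -0.27 beside -0.12 for all tested genes. Stip1, which bridges the chaperones HSP70 and HSP90, read 28.8 ± 5.76 FPKM as the wild-type mean, against 20.5 ± 2.56 FPKM as the knockout mean (SD, n = 4 each, limma adjusted p = 0.48).

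Some other known receptor targets also had KO5 and KO6 as the highest mice. Of 26 listed genes, 24 were tested and 0 passed. Before adjustment, 1 higher and 0 lower genes had a p under 0.05, beside 2.99% and 7.33% of all tested genes. The list median of the log2 difference was 0.10, which became -0.05 without KO6, -0.04 without WT2 and 0.38 without KO8. In 9 of the 24, KO5 and KO6 both lay above the other 6 mice, beside 11.7% of all tested genes, and in the other 15 they did not. Ddit4, an inhibitor of mTORC1 induced by glucocorticoids and stress, read 3.64, 3.61, 4.77 and 3.16 FPKM across WT1 to WT4, against 12.4, 22.0, 5.95 and 4.85 FPKM across KO5 to KO8. All knockouts lay above all wild-type mice, with KO5 and KO6 highest, as for Cebpd (limma adjusted p = 0.48). Such a separation was found in 1 of the 24, beside 2.07% of all tested genes. Trim63, a ubiquitin ligase of muscle atrophy, read 111, 146, 141 and 124 FPKM across WT1 to WT4, against 426, 225, 160 and 112 FPKM across KO5 to KO8 (limma adjusted p = 0.505). By the median of this list, KO5 lay 0.42 and KO6 0.77 above the wild-type mean, while KO7 was at -0.02 and KO8 at -0.49.

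The relatives of the factors were read from the same fit. Of 15 other Krüppel-like factors 7 were tested and 0 passed. In 4 of the 7 KO5 and KO6 were the highest mice, beside 11.7% of all tested genes. The median log2 difference was 0.39. That median became -0.07 without KO6, -0.03 without WT1 and KO6, and 0.02 with no filter on low values. The keratinocyte sum was 1659 FPKM in KO6 and 12.1 FPKM in KO5, and a link to this list was not tested. Klf10, induced by TGF-beta, read 6.75, 4.78, 6.62 and 6.88 FPKM across WT1 to WT4, against 20.2, 16.6, 7.09 and 5.71 FPKM across KO5 to KO8 (limma adjusted p = 0.486), and Klf13 had means of 5.17 and 3.53 FPKM. Among 5 other C/EBP family genes 4 were tested and 0 passed, with a median of -0.05 that turned to 0.09 with median-ratio scaling. These include Cebpg at means of 9.99 and 8.40 FPKM and Ddit3 at 9.90 and 8.90 FPKM. Of 9 relatives and substrates of SGK1 and GILZ, 8 were tested and 0 passed, with a median of -0.19. Nedd4l, the ubiquitin ligase that SGK1 restrains, read 2.72 ± 0.51 and 1.58 ± 0.275 FPKM, lower in 4 of 4 knockouts (SD, n = 4 each, limma adjusted p = 0.48), and Ndrg2 had means of 658 and 516 FPKM. Knockouts all below the wild-type mice were found in 1 of these 8 genes, Nedd4l, beside 4.68% of all tested genes.

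Of the fuel genes linked to KLF15, the deleted gene alone passed. Of 17 listed genes 16 were tested, and 1, Bcat2, passed, lower in knockouts. Before adjustment, 0 higher and 5 lower genes had a p under 0.05, Bcat2 included, beside 2.99% and 7.33% of all tested genes. The list median was -0.31 beside -0.12 for all tested genes. The other 4, named after their values were seen, were Bckdha of the branched-chain ketoacid dehydrogenase at -0.38, the beta-oxidation enzymes Acadl at -0.54 and Hadha at -0.63, and the carnitine carrier Slc25a20 at -0.31. The remaining tested genes of the list also had negative differences, the smallest being -0.20 for Gpt2. The list median was -0.19 with median-ratio scaling, -0.50 without KO6, and -0.21 without WT1 or without KO8. The endothelial and fibroblast medians were -0.38 with all mice and were not recomputed under these alternatives. Pparg, Cd36, Acss2 and Gpt, also named after their values were seen, were each highest in WT1, where the adipocyte sum was highest. So were Bcat2, Bckdha, Bckdhb, Acadm, Acadl and Slc25a20, while the other tested genes of the list were highest in other mice. The part of these cells in the list's values was not tested.

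Metal handling genes other than Mt1 and Mt2 gave no call either. Of 21 listed, 17 were tested and 0 passed, with a median log2 difference of -0.13. An unadjusted p under 0.05 was found in 0 of the 17, beside 2.99% higher and 7.33% lower among all tested genes. In 0 of the 17 were KO5 and KO6 both above the other 6 mice, beside 11.7% of all tested genes. Mt3, a metallothionein best known from brain, read 1.30, 0.70, 2.02 and 2.2 FPKM across WT1 to WT4, against 3.48, 5.37, 4.03 and 0.96 FPKM across KO5 to KO8 (limma adjusted p = 0.487). The zinc transporter Slc30a9 had means of 23.5 and 18.6 FPKM.

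Signals that can also raise C/EBP factors were listed apart. Of 18 genes of IL-6 and acute-phase signalling 15 were tested and 0 passed. KO5 and KO6 were the highest mice in 1 of the 15, beside 11.7% of all tested genes. The median log2 difference was -0.16. That median became 0.05 without WT1, 0.07 without KO8 and 0.135 with array weights. Jak2, a kinase of cytokine receptors, had means of 10.3 and 8.44 FPKM and Jak1 of 26.0 and 21.0 FPKM. Of 18 immediate early genes 12 were tested and 0 passed. KO5 and KO6 were the highest mice in 7 of the 12, beside 11.7% of all tested genes. The median was 0.22. That median became -0.10 without KO6 and -0.17 with a filter at a mean of 5 FPKM. Cyr61, a matrix-associated early gene, read 8.14, 6.12, 8.10 and 7.34 FPKM across WT1 to WT4, against 23.3, 19.5, 7.80 and 6.08 FPKM across KO5 to KO8 (limma adjusted p = 0.512). Nr4a1, an early nuclear receptor, had means of 34.4 and 24.5 FPKM.

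**Figure D5:**
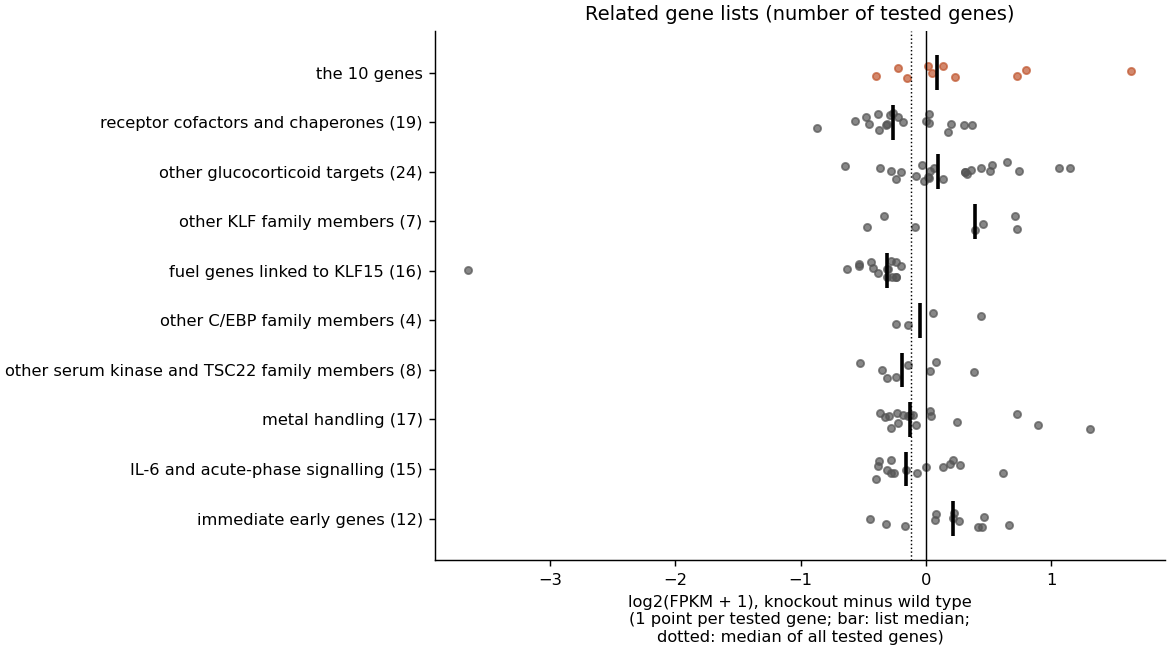
Log2 difference between knockout and wild type of every tested gene in 9 related lists, with the 10 glucocorticoid-responsive genes in orange, list medians as black bars and the median of all tested genes as a dotted line. The fuel genes linked to KLF15 all lie under 0, with Bcat2 at -3.65, and the 10 genes spread from -0.40 to 1.64.

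Over the 8 mice, the genes most like these were named by the same root mean square difference, as a description without a test. Tsc22d3 had as its nearest gene Ccrn4l, which encodes nocturnin, at 0.04, followed by Ncapd3 at 0.08 and Abca5 at 0.09. Ccrn4l read 5.90, 6.85, 9.67 and 6.81 FPKM across WT1 to WT4, against 6.91, 10.6, 6.64 and 5.35 FPKM across KO5 to KO8, high in WT3 and KO6 as Tsc22d3 was. The nearest to Mt1 were Bid, Phf10 and Phrf1, and Bid was listed at 0 in 5 mice. Phf10, a subunit of a chromatin remodelling complex, read 57.3, 20.0, 22.4 and 23.8 FPKM across WT1 to WT4, against 59.9, 60.8, 21.3 and 16.4 FPKM across KO5 to KO8, high in WT1, KO5 and KO6 as Mt1 was. The nearest to Mt2 were Junb at 0.33, Igfbp3 at 0.36 and Sesn1 at 0.38, against 0.93 for Mt2 about its own mean. Junb, a component of AP-1, read 4.27, 2.17, 3.70 and 1.81 FPKM across WT1 to WT4, against 9.37, 11.7, 2.60 and 1.56 FPKM across KO5 to KO8. For Cebpd the nearest were Gm25818 at 0.32, Aldh3a1 at 0.37 and Gm11930 at 0.39, all 3 near or listed at 0 outside KO5 and KO6. Aldh3a1, an aldehyde dehydrogenase, reached 5.62 FPKM in KO5 and 5.05 FPKM in KO6, with 0.0621 to 0.291 FPKM in the other 6 mice.

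The authors' deposited table marks Cebpd, Mt1, Mt2 and Sgk1 with its flag for p under 0.05, and the first 3 also with that for p under 0.001. That is 4 of the 10 genes, and the flag stands on 20.2% of all tested genes in the authors' deposited table. No source used here states the test behind these flags. Mt1, Mt2 and Sgk1 overlapped between the genotypes in the same columns, as the values above show.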

How the data were processed

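RNA libraries (TruSeq v2, single-end) of 8 gastrocnemius muscles were aligned to mm10 with TopHat 2.0.9, per the labels' protocols. The authors deposited FPKM per gene from Cufflinks, version 2.0.2 per the labels' protocols and 2.2.1 per the submitters' processing notes. No source used here states the annotation or the strand setting. FPKM hold no counts, so no count test was run. The deposited table also holds the authors' means, SE and p flags.

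FPKM were tested as log2(FPKM + 1), for 11118 genes with a mean of at least 1 FPKM, with limma 3.58.1 (trend, R 4.3.3) in 1 fit of 4 against 4 mice without covariates. P-values were adjusted by Benjamini-Hochberg over all tested genes, threshold 0.05. Exact permutation tests, 2-sided, used the 70 labelled splits, with a smallest p of 0.0286. A fold on this scale understates changes of low genes. The script was tested on simulated data. The 10 genes and all lists were chosen with earlier results of these data known. The text names Bcat2, the 10 genes, the listed genes past the threshold or else the 2 with the smallest p per list, the 2 most abundant markers per marker list, and the 3 genes most like a member. Some genes that this rule names are not reported here. Alternatives covered pseudocounts, filters, scaling, array weights, summed rows and mice left out. The FPKM sums ran from 691168 to 896190. Promoters came from RefSeq (GRCm38.p6).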

Additional observations from a re-analysis of the deposited data

Results flagged for a closer look

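Mt1 in WT1 stood apart from the other wild-type mice, at 88.9 FPKM against 22.9 to 32.9 FPKM, by Dixon's criterion for a sample far from the rest of its group. Bcat2 in WT1, at 83.0 FPKM, stood apart in the same way. Of 22 groups examined 2 met the criterion, and chance alone gives some such groups. WT1 also had the highest adipocyte sum, 18645 FPKM, and the part of that in either value was not tested.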

How the results depend on the processing

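None of the 10 genes passed the threshold in any of 17 alternative settings. Of 170 values of these genes under the alternatives, 158 kept the sign of the difference and 12 did not. Without WT1 and KO6 the differences of Fkbp5, Tsc22d3 and Klf15 became -0.0025, -0.21 and -0.072. With each mouse left out in turn, Fkbp5 ran from -0.19 to 0.45, Tsc22d3 from -0.13 to 0.15, Klf9 from -0.28 to 0.013 and Klf15 from -0.092 to 0.18. Cebpd was the only one of the 10 whose groups did not overlap, and this held with median-ratio scaling. The other settings could not make its groups overlap, because they kept the compared FPKM as deposited or only left mice out. No other gene of the 10 came to be separated in any setting. The adjusted p (limma) of Cebpd ran from 0.377 to 0.854 when mice were left out. The number of genes past the threshold, 3 with all mice, was 11 without WT1 and KO6 and 4 to 9 with each mouse left out. It was 9 without WT1, 8 without WT2, 6 without KO6, 8 without KO7 and 5 without KO8. The cause was not tested. The count of genes with KO5 and KO6 highest, examined after the data were seen, stayed at 4 of the 10 with median-ratio scaling. There, 6.66% of tested genes did so. It was also 4 without WT1 and without KO8, where 18.8% and 12.6% of tested genes did so. Leaving out either mouse could only keep or raise this count, so these fits are no check of it. Of 153 list medians under the alternatives, 14 changed sign. Without KO6, other Krüppel-like factors, immediate early genes and other receptor targets all turned below 0. No paired analysis was possible because the knockout columns carry numbers that match no labelled knockout mouse. Without counts, no counting error can be given, and 4 mice per genotype limit the precision.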
